A study of Bos taurus with 8 samples.

Results

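The spindle checkpoint genes MAD2, MAD2L1, BUB1, BUB1B, BUB3, TTK, AURKA, AURKB, CDC20 and TOP2A were followed in bovine blastocysts that had met a high or a low glucose concentration during the first cleavages. All probes whose symbol in the array annotation was one of these 10 names were taken, which gave 12 of the 43794 probes. They carried 9 of the 10 symbols, of 15229 symbols in the annotation, and no probe was annotated to TTK, the kinase that starts checkpoint signalling at kinetochores. The RefSeq gene table of assembly ARS-UCD2.0 lists MAD2 as a synonym of MAD2L1, so the 12 probes stood for 8 genes. The annotation gave 3 probes for AURKB, 2 for BUB3 and 1 for each other symbol, and the probe annotated MAD2 and the one annotated MAD2L1 are described separately. These genes were chosen by their log2(glucose/control) ratios, which were in view when the family was picked, so the ratios are given as a description, with no test in their support.

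The embryos came from ovaries collected at slaughter and were matured, fertilized and cultured in vitro, from dairy cattle of any breed. Glucose embryos were held in 5 mM glucose from day 0 to day 3, control embryos in 0.2 mM glucose over the same days, and both then grew in normal culture medium until they were collected at 180 h from fertilization. There were 4 pools of 10 blastocysts in each group, and whole blastocysts were pooled, so inner cell mass and trophectoderm were not separated. Each of 8 two-colour arrays held a glucose pool against a control pool, and the 2 arrays of 1 number, with opposite dyes, were taken as 1 pair of pools, which left 4 pool pairs as replicates. In these bulk pools, fewer cells of a type and less RNA per cell cannot be told apart.

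The spindle assembly checkpoint delays the separation of sister chromatids until every kinetochore is attached to spindle microtubules. MAD2, BUBR1 (the product of BUB1B), BUB3 and CDC20 form the mitotic checkpoint complex, which inhibits the anaphase-promoting complex (APC/C), the ubiquitin ligase that marks securin and cyclin B for destruction. The kinases BUB1 and AURKB act at kinetochores and centromeres, AURKA acts at spindle poles, and TOP2A untangles the DNA of sister chromatids. In cleaving mammalian embryos many of these transcripts are first supplied by the oocyte and are later made by the embryo itself.

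On each array 66.2% to 82.2% of the probes were brighter than the negative spots in 1 channel or both, and the fit covered 32935 probes. The glucose channel of 1 array stood apart, that of pair 1 with glucose in Cy3, where 11.5% of probes were brighter than the negative spots, against 64.2% to 70.9% in the other 7 glucose channels. Without that array, in a fit of the other 7 chosen after the data were seen, 0 probes passed the threshold and the mean ratio of MAD2L1 was 0.35. All 12 checkpoint probes were brighter in 1 channel or both on all 8 arrays. The dimmer BUB3 probe, the dimmer AURKB probes, CDC20 and TOP2A were so in only 7 of the 8 glucose channels. Their mean signals lay between the 51.8th percentile of tested probes, for the dimmer BUB3 probe, and the 99.0th, for the brighter one. Of 11 blastocyst markers, 10 were measured, and POU5F1, NANOG and KRT18 were brighter than the negative spots in each of the 8 glucose and 8 control channels. CDX2, a trophectoderm factor, was so in only 4 glucose and 6 control channels. Pool pair 4 had the widest ratios over all tested probes, with an SD of 0.431, against 0.195, 0.209 and 0.237 in pairs 1 to 3, and the values of pair 4 are therefore given apart wherever a result rests on it.

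The transcripts of MAD2 differed most between the pools of pair 4, and less and in the other direction in pair 2. MAD2L1 had a log2(glucose/control) ratio of -0.12, -0.39, -0.10 and 1.89 in pool pairs 1 to 4, a mean of 0.32 ± 1.06 (SD, n = 4). The probe annotated MAD2 had -0.10, -0.38, -0.08 and 1.99, a mean of 0.35 ± 1.10 (SD, n = 4). In both, the glucose pool was brighter in pair 4 and dimmer in the other 3 pairs. In pair 2, 98% of tested probes had a ratio at or above that of MAD2L1, and 97.8% at or above that of MAD2. For MAD2L1 this share was 85.5% in pair 1 and 77.1% in pair 3. Pair 4 corresponds to a 3.71-fold and a 3.96-fold difference, and without it the means became -0.21 and -0.19.

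The 2 probes gave nearly the same values. Their ratios differed by at most 0.09 in a pool pair and by at most 0.24 on a single array. As 1 gene appears under both names, they are not independent measurements of the difference. No probe sequences were used here.

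In pair 4 the ratio was present with either dye. The MAD2L1 probe had 2.06 on the array with glucose in Cy5 and 1.72 on the array with glucose in Cy3, and the MAD2 probe had 2.30 and 1.67. In pair 1 the MAD2L1 probe had 0.13 and -0.38, and in pair 3 it had 0.10 and -0.30. The sign in these pairs thus followed the dye, and only pairs 2 and 4 had the same sign on both arrays. The difference between the 2 arrays of a pair was 0.34 to 0.51 for MAD2L1, smaller than the ratio in pair 4 and about as large as the ratio of -0.39 in pair 2.

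**Figure D1:**
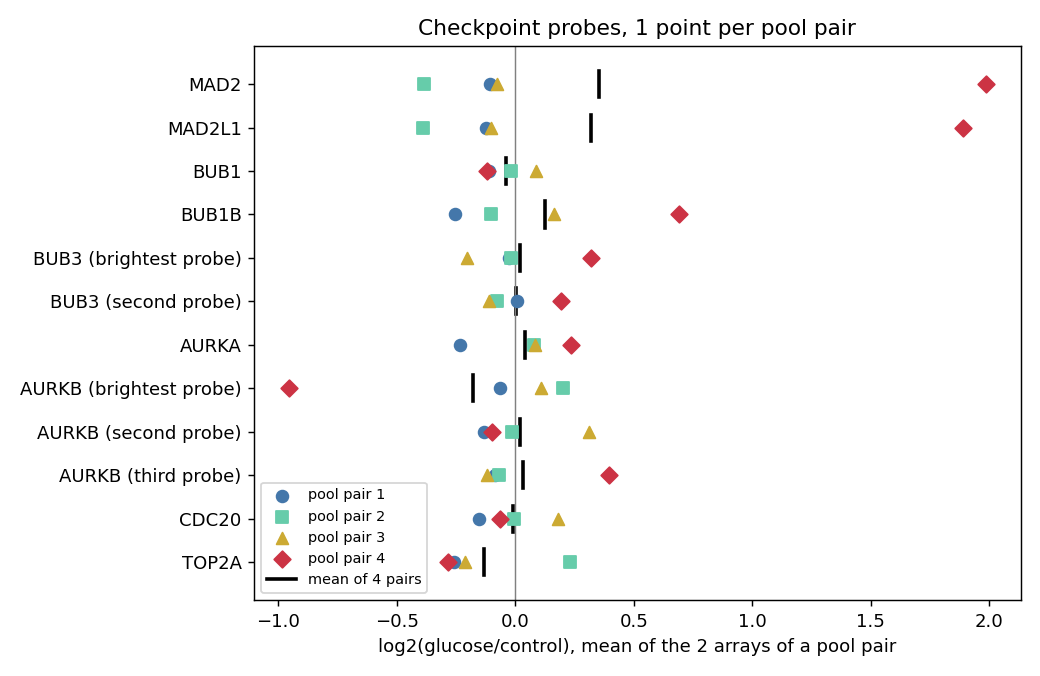
Log2(glucose/control) of the 12 checkpoint probes, with 1 point per pool pair (the mean of its 2 arrays) and a black bar at the mean of the 4 pairs. The MAD2 and MAD2L1 probes have 1.99 and 1.89 in pair 4 and lie below 0 in the other 3 pairs, while the brightest AURKB probe has -0.95 in pair 4.

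Within pair 4 the signals of the 2 pools did not lie equally far from those of the other pools. The normalized log2 signal of MAD2L1 was 14.42, 14.36, 14.41 and 14.95 in glucose pools 1 to 4, against 14.55, 14.75, 14.52 and 13.06 in control pools 1 to 4. Control pool 4 was thus the lowest of the 8 pools and glucose pool 4 the highest. Set against the mean of the other pools of its group, glucose pool 4 deviated by 0.55 and control pool 4 by -1.55. The MAD2 probe gave 14.33, 14.32, 14.36 and 14.88 in the glucose pools, against 14.43, 14.71, 14.43 and 12.89 in the control pools.

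The low signal of control pool 4 also stood in the scanner intensities before any correction. In the Cy5 channel the MAD2L1 probe read 9601 in control pool 4, against 25290, 29760 and 35070 in control pools 1 to 3. In the Cy3 channel it read 6437 in control pool 4, against 17470, 19360 and 21580 in control pools 1 to 3. The glucose pools gave 34290, 35450, 27070 and 31260 in Cy5 for pairs 1 to 4, and 15910, 17600, 13860 and 30270 in Cy3. Control pool 4 was the lowest control reading with either dye, whereas glucose pool 4 stood above the other glucose pools in Cy3 only.

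Control pool 4 also stood apart over all tested probes. Its deviation from the mean of the other 3 control pools had an SD of 0.44 across probes, against 0.253 to 0.292 for the other control pools and 0.287 to 0.337 for the glucose pools. In control pool 4, 2.77% of probes lay at least 2-fold below the other control pools and 1.74% at least 2-fold above them. Of tested probes, 0.383% deviated downward as far as MAD2L1 in control pool 4, and 4.21% deviated upward as far as MAD2L1 in glucose pool 4. With all 16 channels scaled to 1 distribution, a setting chosen after the data were seen, the 2 deviations of MAD2L1 were 0.39 for glucose pool 4 and -1.50 for control pool 4.

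**Figure D2:**
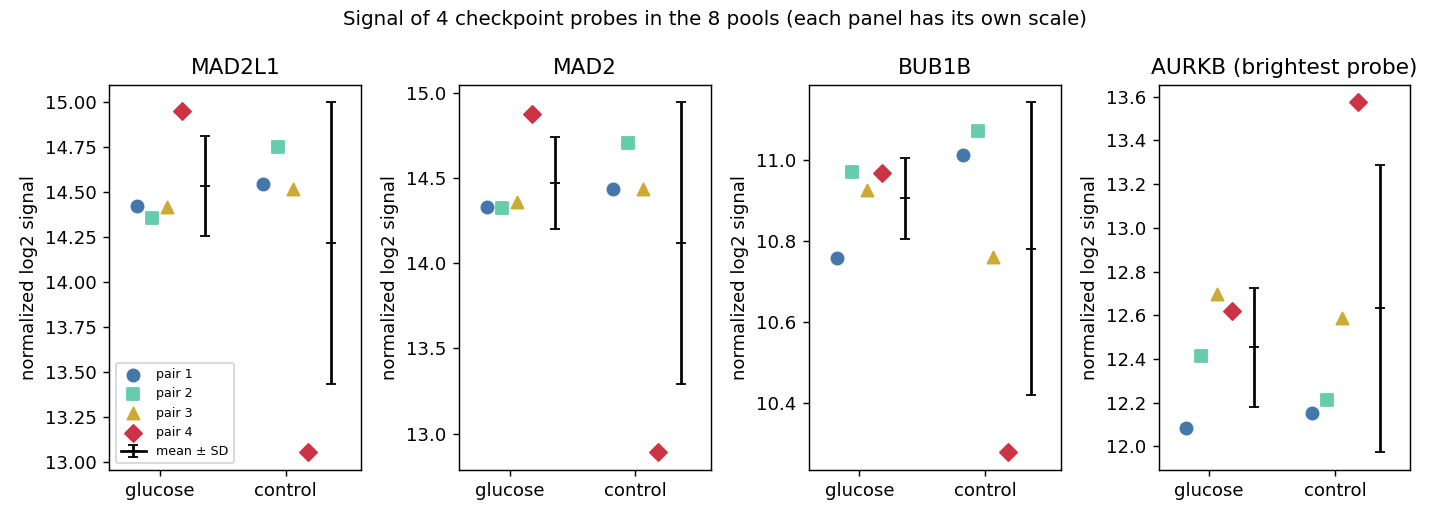
Normalized log2 signal of the MAD2L1, MAD2, BUB1B and brightest AURKB probes in the 4 glucose and 4 control pools, with the mean and SD of each group (n = 4) beside the points. Control pool 4 is the lowest control pool for MAD2L1 (13.06), MAD2 (12.89) and BUB1B (10.28) and the highest for AURKB (13.57).

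The transcripts of the other proteins of the checkpoint complex had smaller ratios than MAD2L1 in pair 4 and in the mean, though not in every other pair. BUB1B, whose product BUBR1 binds CDC20 together with MAD2, had -0.25, -0.10, 0.16 and 0.69 in pool pairs 1 to 4 (mean 0.12 ± 0.41 SD, n = 4). Its signal was 10.76, 10.97, 10.92 and 10.97 in the glucose pools, against 11.01, 11.07, 10.76 and 10.28 in the control pools. As for MAD2, the lowest of the 8 values was control pool 4. Unlike for MAD2, glucose pool 4 lay within the range of the other glucose pools. The BUB1B arrays of a pair differed by at most 0.09, the smallest such limit among the 12 probes, and all 4 pairs had the same sign on both arrays. Without pair 4 its mean was -0.06. In pair 4, 7.31% of tested probes had a ratio at or above that of BUB1B.

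BUB3, the WD-repeat protein that carries BUB1 and BUBR1 to kinetochores, had 2 probes that lay close together. Its brighter probe had -0.03, -0.02, -0.20 and 0.32 (mean 0.02 ± 0.22 SD, n = 4), and its dimmer probe had 0.01, -0.08, -0.11 and 0.19 (mean 0.00 ± 0.14). Both were highest in pair 4, and they differed by at most 0.13 in any pair. The 2 arrays of the brighter probe differed by 0.21 to 0.47 and had the same sign in only 2 pairs. In pair 4 they had 0.56 with glucose in Cy5 and 0.08 with glucose in Cy3. CDC20, the APC/C activator that MAD2 and BUBR1 hold inactive, had -0.15, -0.01, 0.18 and -0.06 (mean -0.01 ± 0.14 SD, n = 4). Its 2 arrays had opposite signs in every pair, with array differences of -0.33 to -0.64 between glucose in Cy5 and glucose in Cy3, so no pair gave CDC20 a direction that held with both dyes.

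Among the checkpoint kinases, BUB1, which phosphorylates histone H2A and recruits other checkpoint proteins, had the narrowest spread of the 12 probes. Its ratios were -0.11, -0.02, 0.09 and -0.12 (mean -0.04 ± 0.10 SD, n = 4). Its signal was 13.18, 13.18, 13.30 and 13.48 in the glucose pools, against 13.29, 13.19, 13.22 and 13.60 in the control pools, and the groups overlapped. BUB1 is one of the brightest of these probes, and its 2 pools of pair 4 were both the highest of their group.

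AURKA, the spindle pole kinase, had -0.24, 0.08, 0.08 and 0.24 (mean 0.04 ± 0.20 SD, n = 4). In AURKA the 2 arrays agreed in sign in only 2 of the 4 pairs. TOP2A had -0.26, 0.23, -0.21 and -0.29 (mean -0.13 ± 0.24 SD, n = 4), with the same sign on both arrays in 4 of 4 pairs. Its glucose pools were at 7.93, 7.93, 7.92 and 7.94, against 8.19, 7.70, 8.13 and 8.23 in the control pools, so the spread lay in the control pools.

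AURKB, the catalytic subunit of the chromosomal passenger complex, gave a different value at each of its 3 probes. Their mean signals lay at the 95.7th, 67.3rd and 60.2nd percentiles of tested probes. The brightest had -0.07, 0.20, 0.11 and -0.95 (mean -0.18 ± 0.53 SD, n = 4), the second -0.13, -0.01, 0.31 and -0.10 (mean 0.02 ± 0.20), and the third -0.09, -0.07, -0.12 and 0.40 (mean 0.03 ± 0.25). In pair 4 the 3 probes were therefore on both sides of 0, with a gap of 1.35 between the highest and the lowest. There the brightest had -0.81 with glucose in Cy5 and -1.10 with glucose in Cy3, and the third had 0.40 and 0.39. Of the 3045 named genes with at least 2 tested probes, 7.52% had a gap as wide in that pair, and the median gap was 0.45. The signal of the brightest probe was 12.08, 12.41, 12.70 and 12.62 in the glucose pools, against 12.15, 12.21, 12.59 and 13.57 in the control pools. No direction can be given for AURKB in pair 4.

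Over the 12 probes, 0 passed an adjusted p of 0.05 in the limma fit over all probes, in which 0 of 32935 probes passed (0%). None of the 12 had an unadjusted p under 0.05, against 2.37% of all tested probes, and the smallest was 0.267, for TOP2A. None had the same sign in all 4 pool pairs, against 10.5% of tested probes. The median of the 9 symbols' mean ratios was 0.02, against 0.01 over the 12589 named genes tested. These counts use the same contrast that was in view when the genes were chosen, so nothing is read from them. With 4 pairs the means are poorly determined, most of all those of MAD2 and MAD2L1, with an SD near 1. The other probes had an SD of 0.10 to 0.53.

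The position of the probes shifted from pair to pair. Of the 12 probes, 11, 9, 6 and 5 lay below 0 in pairs 1 to 4, where 51.9%, 49.5%, 49.5% and 51.9% of all tested probes did. On the pair 1 array whose glucose channel did not stand apart, 7 of the 12 lay below 0. The medians over the 9 symbols were -0.12, -0.02, 0.08 and 0.24. MAD2 and MAD2L1, names of the same gene, both count in them. With that gene counted once, the pair 4 median would lie between CDC20 (-0.06) and AURKA (0.24). In pairs 1 to 3 no checkpoint probe went beyond 0.39 in size, and 0.999% of tested probes were at least 2-fold apart in any of these pairs. In pair 4, 2 of the 12 probes, those of MAD2 and MAD2L1, were at least 2-fold brighter in the glucose pool and 0 at least 2-fold dimmer, against 3.17% and 1.33% of tested probes. The 2 probes stand for the same gene. Bright probes went further in that pair, since 9.47% of probes at or above the 95th signal percentile were at least 2-fold brighter. Of all tested probes, 31, or 0.0941%, reached the ratio of MAD2L1 in pair 4, and of those at or above the 95th signal percentile 0.546% did.

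**Figure D3:**
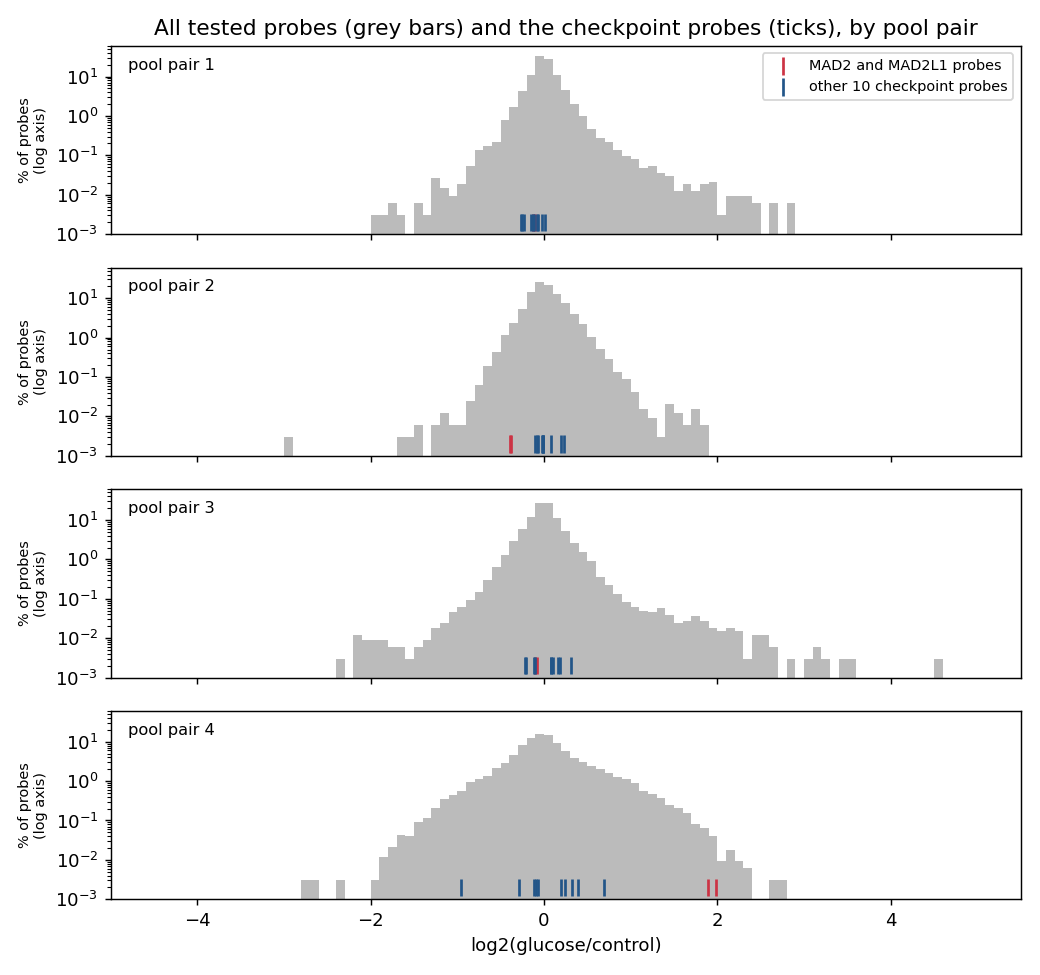
Share of tested probes by log2(glucose/control) in each pool pair, on a log axis (grey bars, 0.1 wide), with the 12 checkpoint probes as ticks. The distribution is widest in pair 4 (SD 0.431), and the MAD2 and MAD2L1 ticks lie near its upper end there and within the bulk in pairs 1 and 3. In pair 2, 98% of tested probes lie at or above the MAD2L1 tick.

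By the mean absolute difference over the 4 pool pairs, the genes whose ratios were most like those of MAD2L1 among 12580 named genes were ZZZ3 (0.07), USP32 (0.10), C15H11orf46 (0.11), CCNC, which encodes cyclin C (0.12), and HNRNPM, which encodes an RNA-binding protein (0.12). The MAD2 probe itself differed from MAD2L1 by 0.04. The ratios of these 5 genes in pair 4 were 1.83, 2.00, 1.69, 1.81 and 1.65. Another probe of the same gene was much lower in pair 4 for ZZZ3 (-0.08), USP32 (0.03), CCNC (0.40) and HNRNPM (-0.16), and C15H11orf46 had 1 probe.

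The wider mitotic machinery gave no call either. In 5 lists without the genes above, 94 genes were measured, and 0 passed the adjusted threshold in either direction by limma (0% of named genes did). At an unadjusted p under 0.05, 1 was above 0 and 2 below, against 2.08% and 0.62% of named genes. The medians of the 94 genes were -0.07, -0.01, -0.07 and 0.22 in pairs 1 to 4, so most lay above 0 in pair 4.

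The list of checkpoint partners had a median ratio of 0.09 over 12 genes, 8 above 0 and 4 below. The 3 of lowest p were UBD, a ubiquitin-like protein that can bind MAD2 in human cells (0.56 ± 0.76 SD, n = 4), ZWILCH, of the RZZ complex (-0.11 ± 0.17), and MAD2L2, a relative of MAD2 known from DNA repair (0.20 ± 0.51). UBD had 1.46 and ZWILCH -0.35 in pair 4. Only 2 of the 6 MAD2L2 probes had the sign of its mean. The MAD2L2 arrays of pair 4 disagreed, at -0.95 with glucose in Cy5 and 1.19 with glucose in Cy3. The medians of the whole list in pairs 1 to 4 were -0.05, 0.01, -0.16 and 0.49.

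Kinetochore genes had a median of 0.00 over 26 genes, 13 above 0 and 13 below, with -0.10, -0.10, -0.09 and 0.38 in pairs 1 to 4. DSN1, of the MIS12 complex, had -0.21 ± 0.13 (SD, n = 4) and lay below 0 in 4 of 4 pairs, with both of its probes below 0 in the mean (limma, adjusted p = 0.977). Its arrays in pair 4 had opposite signs, 0.29 with glucose in Cy5 and -0.38 with glucose in Cy3. CENPL, a centromere protein, had 0.10 ± 0.05, and PMF1, also of the MIS12 complex, had -0.11 ± 0.16, with -0.35 in pair 4.

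The list of the APC/C and its substrates had a median of 0.03 over 21 genes, 12 above 0 and 9 below. UBE2C, the ubiquitin-conjugating enzyme that works with the APC/C, had 0.28 ± 0.16 and lay above 0 in 4 of 4 pairs (limma, adjusted p = 0.977), but its arrays in pair 4 were at -0.16 with glucose in Cy5 and 0.68 with glucose in Cy3. The APC/C subunits ANAPC1 and CDC27 had -0.09 ± 0.13 and -0.16 ± 0.33. No direction can be given for CDC27, since only 1 of its 3 probes had the sign of that mean and its probes ran from -0.59, at the one used, to 1.04 in pair 4. This list's medians were -0.06, 0.05, 0.11 and 0.06 in pairs 1 to 4.

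Aurora partners and mitotic kinases had a median of -0.02 over 16 genes, 6 above 0 and 10 below. ECT2, a cytokinesis regulator, had -0.19 ± 0.25, the spindle motor KIF11 -0.29 ± 0.40 and the AURKA activator TPX2 -0.13 ± 0.17 (SD, n = 4). No direction can be given for ECT2 either, since only 1 of its 3 probes had the sign of that mean and they ran from -0.55, at the one used, to 1.10 in pair 4. KIF11 lay below 0 in 4 of 4 pairs, with -0.89 in pair 4. Cohesin, condensin and topoisomerase genes had a median of 0.00 over 19 genes, 10 above 0 and 9 below. The condensin gene SMC2 had -0.25 ± 0.14 and lay below 0 in 4 of 4 pairs, the same side of 0 as its 2 other probes (limma, adjusted p = 0.977). The cohesin genes RAD21 and SMC3 had 0.48 ± 0.69 and -0.12 ± 0.17. SMC3 had -0.31 in pair 4, and RAD21 had 0.06, 0.20, 0.16 and 1.51 in pairs 1 to 4.

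**Figure D4:**
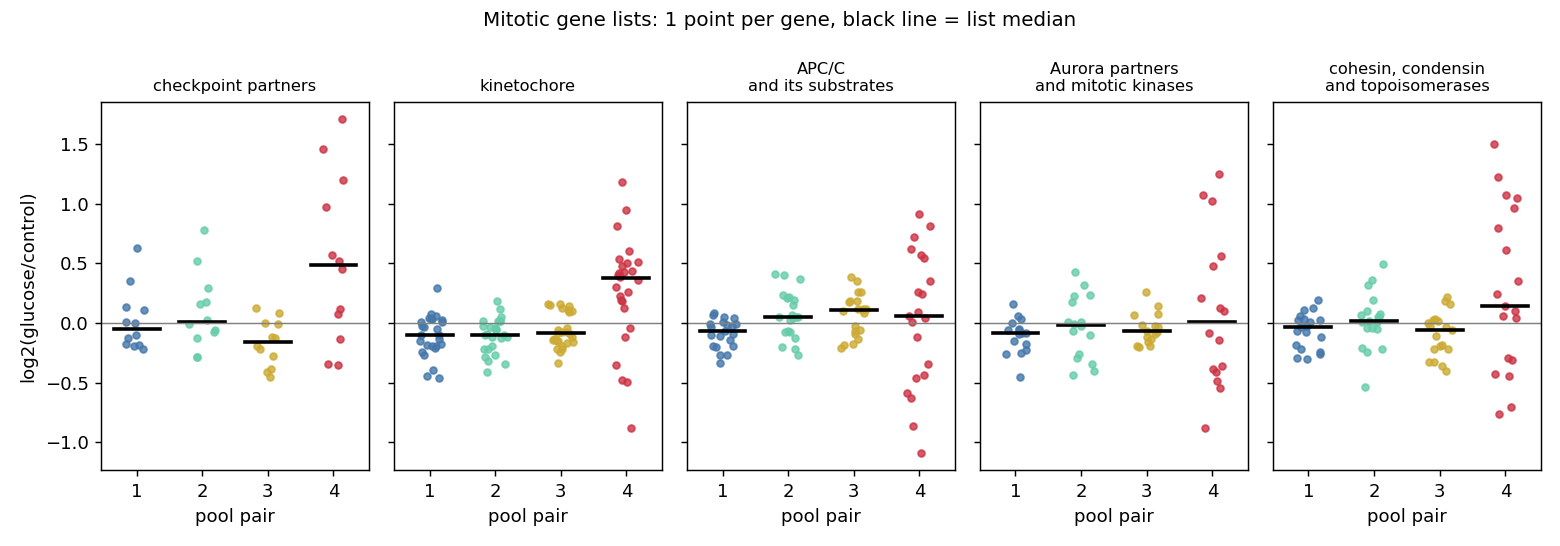
Log2(glucose/control) of the 5 mitotic gene lists in each pool pair, with 1 point per gene (its brightest probe) and a black line at the list median. The points spread most in pair 4, where the medians of checkpoint partners (0.49) and kinetochore genes (0.38) lie above those of pairs 1 to 3.

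In pair 4, 11 of the 94 genes were at least 2-fold brighter in the glucose pool and 1 at least 2-fold dimmer, against 4.45% and 1.86% of named genes. All 12 were among the 61 list genes at or above the 75th signal percentile, where 11.1% of the named genes reached 2-fold brighter and 4.48% reached 2-fold dimmer. Named after their values were seen, these were CCDC99, now SPDL1, a kinetochore protein (1.72), RAD21 (1.51), UBD (1.46), CDK1, the main mitotic kinase (1.25), the topoisomerase TOP2B (1.23), TPR (1.20), NUF2, of the NDC80 complex (1.18), BIRC5, or survivin, a partner of AURKB (1.08), the condensin subunit NCAPG (1.07), the cohesin subunit STAG2 (1.05) and KIF23, a cytokinesis motor (1.02). The ubiquitin-conjugating enzyme UBE2S had -1.10, and its 5 probes reached up to 0.07 in that pair. BIRC5 had another probe at -0.37 in the same pair.

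In control pool 4 the median deviation of each of these 5 lists from the other control pools was below 0. Checkpoint partners had a median deviation of 0.06 in glucose pool 4 and -0.47 in control pool 4, and kinetochore genes 0.21 and -0.17. Control pool 4 lay below the mean of the other control pools in 9 of 12 checkpoint partners, 18 of 26 kinetochore genes, 13 of 21 APC/C genes, 9 of 16 Aurora partners and 12 of 19 cohesin, condensin and topoisomerase genes, against 49.5% of named genes. It did so in 5 of the 9 checkpoint symbols. MAD2 and MAD2L1, names of the same gene, are both among these 5. Of the marker lists outside the spindle, blastocyst (-0.33), proliferation (-0.28) and mesenchymal markers (-0.155) also had a median deviation below 0 in control pool 4. Cumulus and granulosa markers (0.05) and oocyte markers (0.06) lay above 0 there. In glucose pool 4 these medians were -0.16, 0.17, -0.96, -0.055 and -0.02, in the same order. Over all tested probes the median deviation was 0.02 in each of these pools.

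Markers of other cells and states were read in the same pairs. In pair 4 the median ratio was 0.15 for 10 blastocyst markers, -0.05 for 12 of 13 cumulus and granulosa markers, -0.11 for 9 mesenchymal markers, 0.06 for 9 of 11 oocyte markers and 0.19 for 8 proliferation markers. The log2 of the summed signal ranged over the pools from 12.13 to 12.64 in glucose and 12.01 to 12.6 in control for cumulus and granulosa markers, and from 10.44 to 10.53 in glucose and 10.43 to 10.53 in control for oocyte markers. It ranged from 16.28 to 16.72 in glucose and 16.5 to 16.7 in control for blastocyst markers, and from 14.93 to 15.12 in glucose and 14.96 to 15.17 in control for proliferation markers. For mesenchymal markers it ranged from 12.71 to 15.37 in glucose and from 12.66 to 13.37 in control, and their medians by pair were 1.25, -0.10, 1.43 and -0.11. In pair 3 the mesenchymal genes LUM (4.53), VIM (2.85), IGFBP7 (2.53), COL3A1 (1.79), POSTN (1.43), DCN (1.34) and COL1A2 (1.24) were beyond 2-fold, as were the cumulus and granulosa genes PTX3 (1.37), INHBA (1.22) and HSD3B1 (-1.19) and the blastocyst gene IFNT (-1.74). In pair 1 NANOG had -1.94, and LUM (1.79), VIM (2.26), IGFBP7 (2.06), COL3A1 (1.33) and POSTN (1.25) were also beyond 2-fold. In pair 4 LUM had 1.53, HSD3B1 had 1.06 and the replication gene MCM6 had 1.35. The keratin gene KRT8, a marker of trophectoderm, had -1.27 in pair 4, with -0.31 and -2.22 on the arrays with glucose in Cy5 and in Cy3. The part of these markers in the MAD2 ratio of pair 4 was not tested.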

How the data were processed

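The deposited scanner tables hold the spot intensity and local background of both channels, unnormalized, per the file headers, and the labels give the dye of each pool. The authors also deposited a score for every probe on every array, without a unit. The normalization of this score is unknown, its column medians were 0.9981 to 1, and, read as log2 glucose signal over log2 control signal, it correlated with the scanner ratios at 0.979 to 0.998. It served only as an alternative. The submitters' processing notes name limma.

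In R 4.3.3 with limma 3.58.1, mean intensities were corrected by normexp (offset 50), normalized by loess within arrays, expressed as log2(glucose/control), and the 2 arrays sharing a number were averaged. Same-numbered arrays correlated at 0.733 to 0.912 over the tested probes once dye effects were taken out, and at most 0.214 with other numbers. The labels do not state this pairing. Probes above the mean plus 2 SD of 153 negative spots in either channel on 4 or more arrays were tested with lmFit and eBayes against 0, with Benjamini-Hochberg adjustment. Levels are loess values after Aquantile scaling. A gene in a list is its brightest probe. The fit was tested on simulated data in which a probe had the same spread in every pool pair. That test does not cover the wider ratios of pair 4. The labels do not say whether pools came from separate ovary collections, so p-values measure only the spread between pools.

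The genes and lists were chosen with earlier results of these data known. Named genes are the members, the 3 of lowest p in each list, and the 5 most like MAD2L1. Markers are named where beyond 2-fold in a pair. The list genes at least 2-fold apart in pair 4 were picked after their values were seen. Other fits and settings are in the closing section.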

Additional observations from a re-analysis of the deposited data

Results flagged for a closer look

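In 62 groups of 4 values, 16 had 1 value far from the other 3, and the value apart was that of pool pair 4 in 15 of the 16. The rule flags about 1 in 20 groups by chance, but that rate cannot be applied here. Many of these groups share pools, so they are not independent, and the checkpoint genes were chosen with their ratios in view. Pair 4 had the widest ratios over all tested probes (SD 0.431), and the share of all probes with pair 4 apart was not counted. Among ratios of the checkpoint probes, pair 4 stood apart for MAD2 (1.99), MAD2L1 (1.89) and the third AURKB probe (0.40), and pair 2 stood apart for TOP2A (0.23). Among their levels, glucose pool 4 stood apart for MAD2 (14.88) and MAD2L1 (14.95), and so did control pool 4, at 12.89 and 13.06. Pair 4 also stood apart for the median of the kinetochore list (0.38), for PMF1 (-0.35), KIF11 (-0.89) and RAD21 (1.51), and for 4 of the 5 genes most like MAD2L1, namely ZZZ3 (1.83), USP32 (2.00), CCNC (1.81) and HNRNPM (1.65), but not for C15H11orf46. These 5 were picked for their likeness to MAD2L1, so their values in pair 4 are no independent sign.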

How the results depend on the processing

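No probe passed the adjusted threshold under any of the 18 alternatives that refitted the model, and so no checkpoint or list gene did. With the replicate number as a block over 8 arrays, which treats the arrays of a number as paired, the median of the members was 0.018 and 0 probes passed, as without the block. Since each pair holds both dyes, that median had to be the same with and without the block. Aquantile scaling and the changed probe filters could not move it either, as they left every checkpoint ratio as it was. The median ranged from -0.06, without pool pair 4, to 0.06, in array set 056 alone, and lay below 0 in 4 of 20 alternatives. These 20 include the settings that could not move it. With MAD2 and MAD2L1 counted once, chosen after the data were seen, it was 0.003. The mean ratio of MAD2L1 ranged from -0.21 without pair 4 to 0.56 without pair 2, and array weights, which gave pair 4 a weight of 0.303, made it -0.06. BUB1B became -0.06 and the brightest AURKB probe 0.08 without pair 4. The ratio of MAD2L1 in pair 4 itself lay between 1.62 (median spot intensity) and 2.13 (no loess), with 1.82 in the deposited table. Without pair 4 the list medians became -0.03 for checkpoint partners (0.09 with it), -0.10 for kinetochore (0.00), -0.0031 for the APC/C (0.03), -0.07 for Aurora partners (-0.02) and -0.05 for cohesin and condensin genes (0.00), and array weights gave -0.02, -0.06, -0.03, -0.08 and -0.04 in that order. Without the pair 1 array with glucose in Cy3, an alternative chosen after the data were seen, the median of the members was 0.01. The cause of these shifts was not tested. The number of arrays limits the precision, and the offset shrinks ratios of dim probes such as the dimmer BUB3 probe, TOP2A and the dimmer AURKB probes.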
